A study of Arabidopsis thaliana with 20 samples.

Results

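The genes described here are 9 gibberellin oxidase genes and GASA4, a gibberellin-regulated peptide gene, in cells of the Arabidopsis thaliana root tip. They are 10 of the 33201 genes in the deposited table, and all 10 were found in it by their locus identifiers. The list was chosen by gene identity, with results of these same data already known, among them the lower GASA4 level in libraries labelled elongation zone. The values of these genes are therefore a description, and the p-values given for them come from a fit over the whole table and support nothing about the choice.

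RNA was measured in sorted root cells of Col-0 seedlings that carried the PET111:GFP reporter, in every group. Roots were cut, turned into protoplasts and sorted, and the cells without GFP were kept, which per the design text served to leave out columella cells of the root cap. Libraries labelled elongation zone (EZ) and libraries labelled meristematic zone (MZ) were each made from seedlings aged 3, 4, 5, 6 or 7 days. Each label and age has 2 replicates, called biological in the design text, which gives 20 libraries. Plants were grown on medium with sucrose, and no wild type, mutant or hormone treatment was among the samples used here. Values are FPKM, in which fragments are counted per length of transcript and per number of fragments mapped, so levels can be set side by side between genes.

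Gibberellins are growth hormones that promote cell elongation in roots and are also needed for a normally sized root meristem. The 20-oxidases (GA20OX) carry out the successive oxidations that lead to the immediate precursors, the 3-oxidases (GA3OX) make the bioactive hormones from those precursors, and the 2-oxidases (GA2OX) inactivate bioactive hormones or their precursors. The hormone binds a GID1 receptor, and the complex marks DELLA proteins, which repress growth responses, for degradation. In the Arabidopsis root, expression of several of these oxidases is known to respond to the hormone itself. GASA4 encodes a small cysteine-rich secreted peptide whose transcript is known to be raised by gibberellin.

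The zone labels did not match the level of genes of dividing cells. The summed level of 6 such genes (PCNA1, MCM2, MCM3, CDKB2;2, CYCB1;1 and AUR1) was 49.8 to 177 FPKM (median 102) in EZ-labelled libraries, against 18 to 51.5 FPKM (median 31.6) in MZ-labelled libraries, and 5 of the 6 passed the test as higher in EZ. The zones are therefore named by their labels throughout, and each zone direction below is a direction between labels. Estimated depth was 13.1 to 50.5 M fragments in EZ-labelled libraries and 4.13 to 24.4 M in MZ-labelled libraries. Of the root cap markers, 3 of 5 were lower and 1 of 5 higher in EZ, with summed levels of 199 to 1036 FPKM (median 371) in EZ against 478 to 1667 FPKM (median 981) in MZ. Among these, FEZ (1.28) and SMB (0.41, not called) lay on the EZ side. Of the other marker lists, 2 of 3 stem cell niche genes and 1 of 6 endodermis genes were higher in EZ, 1 of 4 root hair genes was lower in EZ, and 0 of the xylem, phloem and photosynthetic genes passed. All these marker counts stand beside 20.6% of all tested genes called higher and 7.77% called lower in EZ. Nothing is read from a count of 1 gene. The second day 6 EZ library stood apart: its summed endodermis level was 12.6 FPKM, against 269 to 1731 FPKM in the other 19 libraries, and its root cap level of 1036 FPKM was the highest of its label. Results called below are therefore also given without it. Depth and the summed levels of dividing-cell and root cap genes thus differ with the zone label, and their part in the zone differences below was not tested. In sorted samples such as these, fewer cells of a type and less RNA per cell cannot be told apart.

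GASA4 was by far the most abundant of the 10 genes, and in most libraries a single gene made up most of the signal of each oxidase class. The median over 20 libraries was 1027 FPKM for GASA4, 28.2 FPKM for GA2OX6, 6.39 FPKM for GA20OX5 and 2.56 FPKM for GA3OX1. The other 6 had medians of 1.13 FPKM (GA2OX2), 1.11 FPKM (GA2OX8), 0.568 FPKM (GA20OX1), 0.276 FPKM (GA3OX2), 0.232 FPKM (GA20OX2) and 0 FPKM (GA20OX3). GASA4 was above GA2OX6 in 20 of 20 libraries, GA2OX6 above GA20OX5 in 16, and GA20OX5 above GA3OX1 in 16. From GA3OX1 to GA20OX2 the order was not kept between libraries: GA3OX1 was above GA2OX2 in 13 of 20, GA2OX2 above GA2OX8 in 11, GA2OX8 above GA20OX1 in 11, GA20OX1 above GA3OX2 in 10, and GA3OX2 above GA20OX2 in 7. The levels of these neighbours overlap, and for some the order turned with the label. GA20OX1 was above GA3OX2 in 8 of 10 EZ-labelled but 2 of 10 MZ-labelled libraries, and GA3OX2 above GA20OX2 in 1 of 10 EZ-labelled but 6 of 10 MZ-labelled libraries. GA20OX2 was above GA20OX3 in 15 of 20, and both were listed at 0 in the other 5.

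A level of 0 needs care in these data. In the table, 20 genes with a median above 50 FPKM are listed at 0 in some library. Whether a listed 0 is a failed estimate or a true absence was not tested. Of the 10 genes, GA2OX6 and GASA4 had no value at 0, while GA20OX3 was listed at 0 in 16 libraries. Taken over the full transcript length, a count of 3 fragments corresponds to 0.0385 to 0.471 FPKM for GA20OX1 across the libraries. For the short GASA4 transcript it corresponds to 0.0746 to 0.913 FPKM, counting error only. Depth was estimated with 150 to 300 bases taken off the transcript length. With such a shorter length the levels given here for 3 fragments would be higher, most for short transcripts. For the 7 weakest oxidases the same count over the full length corresponds to 0.361 to 0.579 FPKM in the shallowest library, the first day 3 MZ library. Lower levels are still listed there, such as 0.22 FPKM for GA20OX1 and 0.198 FPKM for GA20OX2, and rest on fewer than 3 fragments.

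Of the 20-oxidases, GA20OX5 (AT1G44090) carried most of the signal and fell with age in EZ-labelled libraries. The enzyme it encodes is known to carry out only the early steps of the 20-oxidase reaction in vitro. In EZ-labelled libraries its 2 values were 24.8 and 36.1 FPKM on day 3, 39.2 and 50.5 FPKM on day 4, 22.0 and 4.36 FPKM on day 5, 6.07 and 1.25 FPKM on day 6, and 1.45 and 0 FPKM on day 7. All 4 libraries of days 3 and 4 lay above all 6 libraries of days 5 to 7. In MZ-labelled libraries the values were 6.71 and 0.98 FPKM on day 3, 13.3 and 34.5 FPKM on day 4, 16.7 and 16.4 FPKM on day 5, 2.39 and 1.83 FPKM on day 6, and 1.03 and 1.97 FPKM on day 7. There the 4 libraries of days 4 and 5 were the highest, and day 3 overlapped with days 6 and 7.

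The slope of GA20OX5 in EZ-labelled libraries was -1.21 ± 0.17 log2(FPKM + 1) per day (SE, n = 20 libraries in the fit; limma, Benjamini-Hochberg adjusted p = 0.0385). It was 1 of 3 genes called among 22335 tested for that trend (0.0134%). The slope in MZ-labelled libraries was -0.42 ± 0.17 per day (adjusted p = 0.309). A test for any change of the zone difference over the 5 ages gave GA20OX5 an unadjusted p of 0.0267 and did not pass (adjusted p = 1.0). The difference between the 2 slopes themselves was not tested. The EZ call was lost when any of 12 of the 20 libraries was left out, with slopes from -1.26 to -1.08 in those fits and an adjusted p of up to 0.341 (without the second day 7 EZ library, the one listed at 0). Without the second day 6 EZ library the slope was -1.13 ± 0.17 (adjusted p = 0.0803). It was also lost with a pseudocount of 0.1 FPKM (adjusted p = 0.0887). In the EZ-labelled libraries of days 3 to 5, GA20OX5 was 74.8 to 97.0% of the summed level of the 20-oxidase genes described here (median 89.4%, 6 libraries). On days 6 and 7 it was 0 to 69.7% (median 42.8%, 4 libraries). In MZ-labelled libraries of all ages the share was 37.8 to 100% (median 95.9%, 10 libraries).

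**Figure D1:**
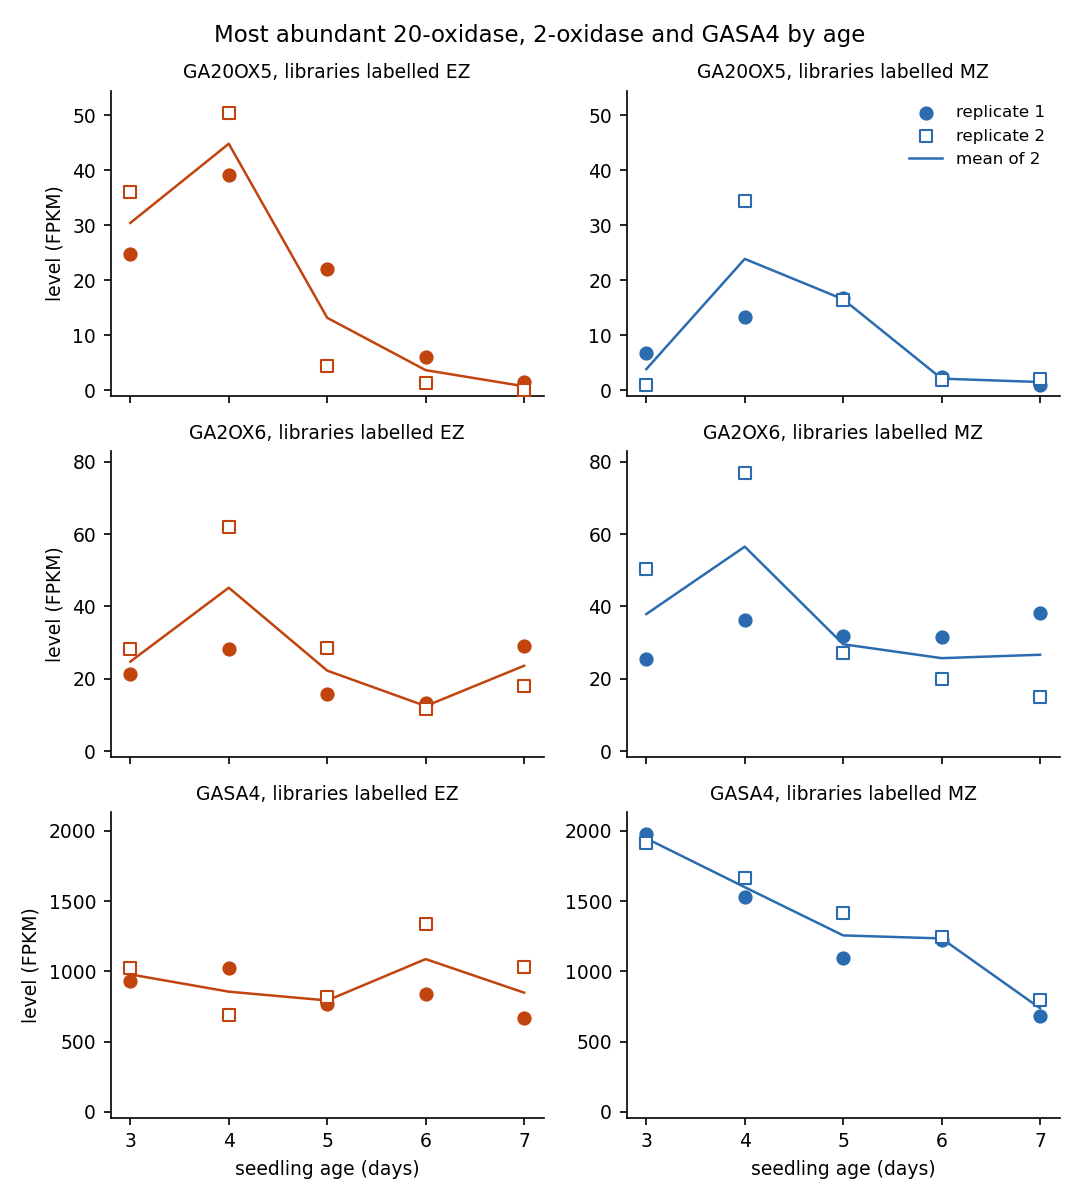
Level in FPKM (vertical axis, from 0) against seedling age in days for GA20OX5, GA2OX6 and GASA4, with EZ-labelled libraries on the left and MZ-labelled libraries on the right. Filled circles are replicate 1, open squares replicate 2 and lines the mean of 2. GA20OX5 is at 24.8 to 50.5 FPKM on days 3 and 4 and at 0 to 1.45 FPKM on day 7 in EZ, and GASA4 in MZ is at 1917 and 1976 FPKM on day 3 and at 682 and 793 FPKM on day 7.

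GA20OX1 (AT4G25420), a 20-oxidase known for its part in stem and hypocotyl elongation, was weak and higher in EZ-labelled libraries. Its values there were 2.86 and 1.29 FPKM on day 3, 1.56 and 1.42 on day 4, 0.769 and 0.529 on day 5, 0.706 and 4.78 on day 6, and 0 and 1.18 on day 7. In MZ-labelled libraries they were 0.22 and 0.49 FPKM on day 3, 0.0675 and 0.972 on day 4, 0.0795 and 0 on day 5, 0.606 and 0 on day 6, and 0.485 and 0 on day 7. The groups overlap: 6 of 10 EZ and 0 of 10 MZ libraries reached 1 FPKM. The zone difference was 0.83 ± 0.25 log2(FPKM + 1) (SE, n = 20; limma, adjusted p = 0.0222). GA20OX1 met the filter on low values through EZ-labelled libraries alone, so it could enter the test only by being high there. The call was lost with quantile normalisation (0.59, adjusted p = 0.132), without the first day 3 EZ library (adjusted p = 0.0507) and without the first day 4 MZ library (adjusted p = 0.053). The highest value, 4.78 FPKM, was in the second day 6 EZ library, without which the difference was 0.66 ± 0.22 (adjusted p = 0.0357).

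GA20OX2 (AT5G51810), which is known to act together with GA20OX1 in growth and flowering, had a lowest, median and highest value of 0, 0.859 and 2.81 FPKM in EZ-labelled libraries. In MZ-labelled libraries these were 0, 0.118 and 1.67 FPKM. The difference of 0.53 ± 0.24 did not pass (adjusted p = 0.118). Its 2 highest MZ values, 1.12 and 1.67 FPKM, were the second replicates of days 3 and 4. The difference was 0.35 over days 3 to 5 alone (limma, adjusted p = 0.518) and 0.33 with quantile normalisation (adjusted p = 0.284). With 1 library left out it ran from 0.35, without the first day 4 EZ library, to 0.71, without the second. It passed only in the last of these. It also passed with both second-replicate libraries of day 4 left out, a setting chosen after the data were seen (0.82, adjusted p = 0.0125). GA20OX3 (AT5G07200), a 20-oxidase with a known role mainly in seeds and reproductive tissue, was at 0.412, 0.572, 0.0812 and 0.568 FPKM in 4 EZ-labelled libraries and listed at 0 in the other 6 and in all 10 MZ-labelled libraries. It was not tested, because no library reached 1 FPKM.

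The 3-oxidases were low in both zones. GA3OX1 (AT1G15550), the main 3-oxidase of vegetative tissue, was at 2.93 and 0.879 FPKM on day 3, 8.19 and 3.95 on day 4, 3.39 and 4.01 on day 5, 2.99 and 1.21 on day 6, and 2.34 and 9.08 on day 7 in EZ-labelled libraries. In MZ-labelled libraries it was at 2.48 and 1.51 FPKM on day 3, 2.97 and 5.78 on day 4, 0.163 and 2.19 on day 5, 2.64 and 0 on day 6, and 0.931 and 0 on day 7. The ranges overlap widely, and the 3 lowest values are in MZ from day 5 on. The difference of 0.85 ± 0.33 did not pass over all genes (limma, adjusted p = 0.067). It was 0.51 over days 3 to 5 alone (adjusted p = 0.3) and 0.55 with quantile normalisation (adjusted p = 0.252). With 1 library left out it ran from 0.66 to 1.04. It passed only without the first day 7 EZ library (1.01), the second day 5 MZ library (0.99) or the first day 6 MZ library (1.04). The MZ slope of -0.36 ± 0.16 per day did not pass either (adjusted p = 0.366), and the EZ slope was 0.10 ± 0.16 (adjusted p = 0.862).

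GA3OX2 (AT1G80340), which acts with GA3OX1 in the young seedling, had a lowest, median and highest value of 0, 0.25 and 1.74 FPKM in EZ-labelled libraries, against 0, 0.656 and 1.57 FPKM in MZ-labelled libraries. The difference was -0.25 ± 0.24 (limma, adjusted p = 0.457). GA3OX2 reached 1 FPKM in 1 EZ-labelled and 3 MZ-labelled libraries. It thus met the filter on low values only through MZ, and could enter the test only by being high there. GA3OX1 was 81.0 to 100% of the sum of both 3-oxidases in EZ-labelled libraries (median 94.0%). In MZ-labelled libraries the share was 0 to 100% (median 64.8%), with 1 of the 10 libraries listing both genes at 0. Their summed level had a median of 3.65 FPKM in EZ and 3.00 FPKM in MZ.

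**Figure D2:**
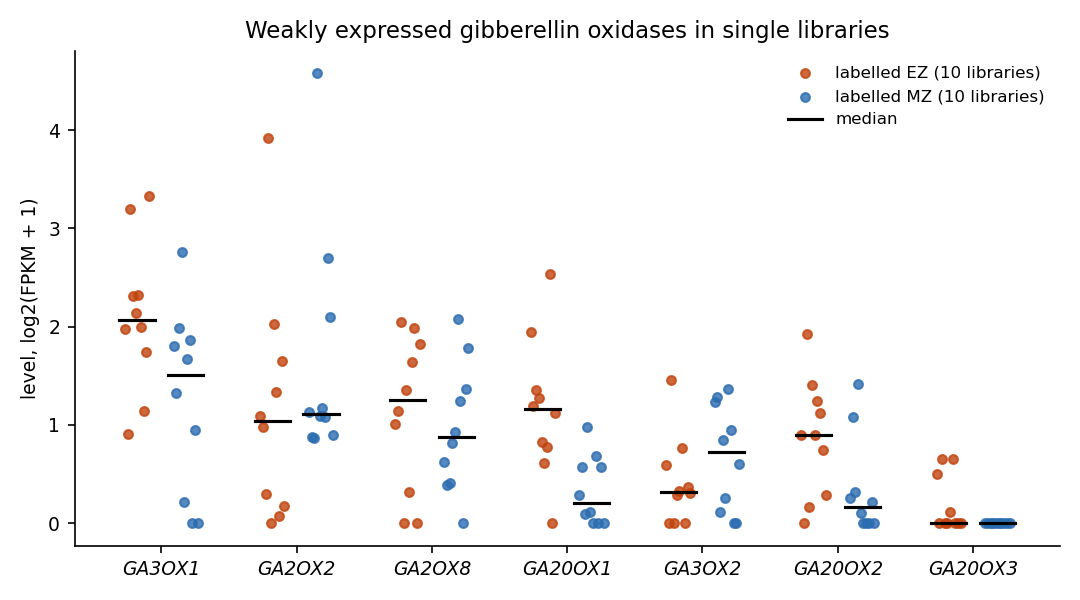
Level as log2(FPKM + 1) (vertical axis) of the 7 weakly expressed oxidases, with each point 1 library, EZ-labelled libraries left of MZ-labelled libraries, and a bar at the median of 10. For GA20OX1 the median is 1.23 FPKM in EZ and 0.15 FPKM in MZ, and the 2 groups of points overlap for each gene. The uppermost points of GA2OX2 are the second day 4 replicates of both labels.

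The 2-oxidase signal was mainly GA2OX6 (AT1G02400), which encodes an enzyme that inactivates bioactive gibberellins and their immediate precursors. In EZ-labelled libraries it was at 21.3 and 28.2 FPKM on day 3, 28.3 and 62.1 on day 4, 15.9 and 28.6 on day 5, 13.2 and 11.7 on day 6, and 29.2 and 18 on day 7. In MZ-labelled libraries it was at 25.5 and 50.3 FPKM on day 3, 36.3 and 76.8 on day 4, 31.9 and 27.2 on day 5, 31.6 and 19.8 on day 6, and 38.3 and 15.0 on day 7. GA2OX6 averaged 25.6 ± 14.5 FPKM in EZ and 35.3 ± 17.6 FPKM in MZ (SD, n = 10 libraries each, over all ages), and the ranges overlap almost entirely. The zone difference of -0.46 ± 0.23 did not pass (adjusted p = 0.149), nor did the slopes of -0.19 ± 0.12 in EZ (adjusted p = 0.649) and -0.22 ± 0.12 in MZ (adjusted p = 0.467). GA2OX6 made up 78.4 to 93.2% of the summed level of the 2-oxidase genes described here in EZ-labelled libraries and 76.4 to 97.8% in MZ-labelled libraries.

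GA2OX2 (AT1G30040), an enzyme of the same subgroup as GA2OX6, was near 1 FPKM in most libraries and far higher in a few. The lowest, median and highest values were 0, 1.05 and 14.1 FPKM in EZ, against 0.82, 1.16 and 22.9 FPKM in MZ. The highest value of each label was the second replicate of day 4, where the first replicate was at 0.231 FPKM in EZ and 0.82 FPKM in MZ. The same 2 libraries were also the highest of their label for GA2OX6 and for GA20OX5. The zone difference was -0.49 ± 0.54 (adjusted p = 0.524). GA2OX8 (AT4G21200), an enzyme of the other subgroup of 2-oxidases, which acts on earlier precursors, had a lowest, median and highest value of 0, 1.38 and 3.14 FPKM in EZ, against 0, 0.834 and 3.22 FPKM in MZ. Its difference of 0.17 ± 0.32 did not pass (adjusted p = 0.731).

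Set side by side as summed levels, the 2-oxidases stood above the 3-oxidases in all 20 libraries. They stood above the 20-oxidases in 6 of 10 EZ-labelled and in 10 of 10 MZ-labelled libraries. In the other 4 EZ-labelled libraries, all of days 3 to 5, GA20OX5 alone exceeded GA2OX6. The summed 20-oxidase level had a median of 33.1 FPKM on days 3 to 5 and 4.67 FPKM on days 6 and 7 in EZ (6 and 4 libraries). In MZ it was 15.0 and 1.90 FPKM at the same ages. The summed 2-oxidase level had a median of 31.0 and 18.8 FPKM at these ages in EZ, and of 35.7 and 29.6 FPKM in MZ.

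GASA4 (AT5G15230) was lower in EZ-labelled than in MZ-labelled libraries on days 3 to 5, and the day 3 MZ libraries held its highest values. In EZ-labelled libraries it was at 935 and 1022 FPKM on day 3, 1024 and 687 on day 4, 766 and 820 on day 5, 841 and 1334 on day 6, and 668 and 1029 on day 7. In MZ-labelled libraries it was at 1976 and 1917 FPKM on day 3, 1532 and 1667 on day 4, 1094 and 1418 on day 5, 1225 and 1244 on day 6, and 682 and 793 on day 7. On days 3, 4 and 5 both MZ values lay above both EZ values, whereas on days 6 and 7 the labels overlap. GASA4 averaged 913 ± 200 FPKM in EZ and 1355 ± 435 FPKM in MZ (SD, n = 10 each, over all ages).

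The zone difference of GASA4 was -0.52 ± 0.15 log2(FPKM + 1) (SE, n = 20; limma, adjusted p = 0.0151), a ratio of 0.695 on the scale of FPKM + 1. Over days 3 to 5 alone it was -0.86 (adjusted p = 0.00302). The call held with each single library left out, with adjusted p from 0.00698 to 0.035. Without the second day 6 EZ library, which held the highest EZ value of 1334 FPKM, the difference was -0.59 ± 0.14 (adjusted p = 0.00698). With both second-replicate day 4 libraries left out, the difference was -0.45 and the call was lost (adjusted p = 0.0592). The MZ means of 2 libraries were 1947, 1600, 1256, 1234 and 738 FPKM from day 3 to day 7, and the slope of -0.32 ± 0.07 per day missed the threshold (adjusted p = 0.0585). It passed in 2 of 8 other settings, with a filter of 5 FPKM (limma, adjusted p = 0.0332) and with the replicate number as a block (0.0457). It did not pass under either rescaling. With 1 library left out the slope ran from -0.34 to -0.30 per day, and it passed only without the first or the second day 6 EZ library. These do not enter the MZ means, and leaving them out changes the shared spread and the set of genes tested. The slope in EZ-labelled libraries was -0.01 ± 0.07 per day (adjusted p = 0.96). A change of the zone difference with age was not established (unadjusted p = 0.106, adjusted p = 1.0).

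Counted together, 9 of the 10 genes passed the filter on low values, and 2 of these 9 passed the test of the zone difference. GA20OX1, 1 of the 2, met the filter only through EZ-labelled libraries, so nothing is read from this count. For that comparison 28.4% of the 22335 tested genes were called, 20.6% higher in EZ (here GA20OX1) and 7.77% lower in EZ (here GASA4). Over all tested genes the median difference was 0.15, and relative to it GA20OX1 was at 0.68 and GASA4 at -0.68. The split of all genes depends on scaling: with median-of-ratios scaling 17.2% were higher and 12.4% lower, and with quantile normalisation 12.5% and 12.6%, with the median of all genes at -0.06. GASA4 stayed lower in EZ and GA20OX1 higher in EZ under both. The median over the 9 genes was 0.17, with 5 above 0. Nothing is read from these either, since GA20OX1 met the filter only through EZ-labelled and GA3OX2 only through MZ-labelled libraries.

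For the age trend 1 of 9 was called in EZ-labelled libraries (GA20OX5), beside 0.0134% of all genes. In MZ-labelled libraries 0 of 9 were called, beside 0.918% of all genes. There 3 of the 9 had an unadjusted p under 0.05 by limma (GA20OX5, GA3OX1 and GASA4, each with a negative slope). Of the 22335 tested genes, 2897 had such a p for the MZ slope, and 190 of the 205 called had a negative slope. Nothing is read from these counts. The median slope over the 9 was -0.03 per day in EZ and -0.20 per day in MZ, beside -0.02 and -0.05 over all genes. A test for any difference among the 5 ages called 0 of 9 in EZ (0.0537% of all genes) and 0 of 9 in MZ (0.412% of all genes), all with limma. GA20OX5 had an unadjusted p of 8.18e-05 and an adjusted p of 0.0978 in EZ, and 0.00181 and 0.129 in MZ. GASA4 in MZ had an unadjusted p of 0.00793 and an adjusted p of 0.266. The change of the zone difference with age was called for 0 of 9 (0.0448% of all genes). For 1 of the 9, GA20OX5, the unadjusted p was under 0.05, beside 1032 of the 22335 tested genes. Of the tested genes in the marker lists of root cell types, 0 were called in either age trend by limma.

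**Figure D3:**
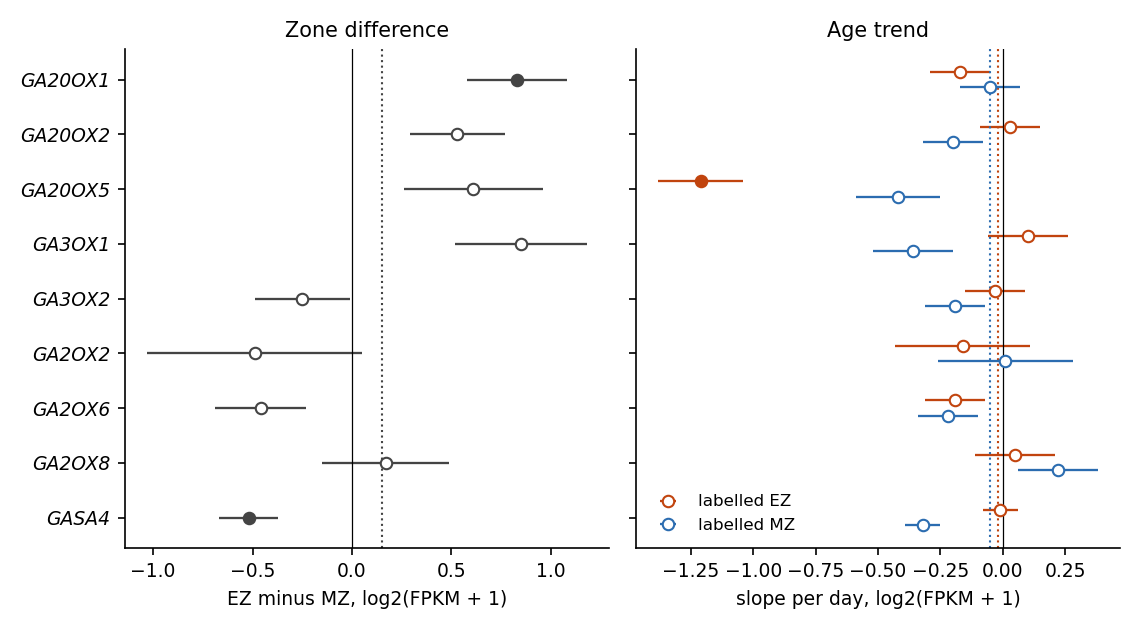
Zone difference (left panel, EZ minus MZ) and slope per day (right panel, EZ in orange above MZ in blue) of the 9 tested genes, both in log2(FPKM + 1), with bars of 1 SE. Filled points passed an adjusted p of 0.05 and dotted lines are the medians of all genes. GA20OX1 at 0.83 and GASA4 at -0.52 are filled on the left, and the EZ slope of GA20OX5 at -1.21 is filled on the right.

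The other genes of the pathway comprised 47 listed genes, chosen with earlier results known, of which 46 were in the table and 32 were tested. In the zone difference 8 of the 32 passed as higher in EZ and 1 as lower in EZ, or 25.0% and 3.12%, beside 20.6% and 7.77% of all genes. With quantile normalisation 2 passed as higher and 2 as lower, beside 12.5% and 12.6% of all genes. The median difference of the 32 was 0.38, beside 0.15 over all genes. Of the 8, ELA2 and GASA5 met the filter on low values through EZ-labelled libraries alone. So did GA2OX3, NPF3 and SNE, which were not called, and nothing is read from these counts or this median. The counts by role below are small and stand beside the same 20.6% higher and 7.77% lower of all genes. In the age trends, in the test for any age difference and in the change of the zone difference with age, limma called 0 of 32. The share of all genes called was 0.0134% for the EZ slope and 0.918% for the MZ slope. An unadjusted p under 0.05 was found for 1 of 32 in the EZ slope, beside 1860 of the 22335 tested genes. For the MZ slope it was 3 of 32, beside 2897 of the 22335.

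Of the early synthesis genes, 2 of 4 tested were higher in EZ. KO (AT5G25900), ent-kaurene oxidase, had a lowest, median and highest value of 8.66, 17.1 and 33.6 FPKM in EZ, against 3.93, 8.14 and 17.4 FPKM in MZ. Its difference was 1.16 ± 0.27 (limma, adjusted p = 0.00552). KS (AT1G79460), ent-kaurene synthase, had 3.38, 5.27 and 8.70 FPKM in EZ, against 1.24, 2.46 and 4.73 FPKM in MZ, a difference of 0.80 ± 0.23 (adjusted p = 0.0204). The call of KS was lost with quantile normalisation (adjusted p = 0.172), over days 3 to 5 alone (0.0895) and without the second day 5 EZ library (0.0501) or the first day 5 MZ library (0.05). The first enzyme of the route, CPS (AT4G02780), had a median of 0.102 FPKM and was not tested.

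Of the other oxidases, 0 of 3 tested passed in the zone difference. Their unadjusted p was under 0.05 for 1, beside 8913 of the 22335 tested genes. The one with the highest median, GA2OX1 (AT1G78440), a 2-oxidase, had a median of 0.378 FPKM in EZ against 1.43 FPKM in MZ, a difference of -0.69 ± 0.30 (adjusted p = 0.102). GA3OX4 was not analysed here. Among other inactivating enzymes, ELA2 (AT5G24900), a cytochrome P450 known to inactivate gibberellins, had 0.55, 1.09 and 2.47 FPKM in EZ, against 0, 0.233 and 0.672 FPKM in MZ. Its difference was 0.83 ± 0.19 (adjusted p = 0.00521), and like GA20OX1 it met the filter through EZ-labelled libraries alone. Its neighbour in function ELA1 (AT5G24910) had a higher median, 4.41 FPKM in EZ and 4.36 FPKM in MZ, with a difference of 0.09 ± 0.28 (adjusted p = 0.836).

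The receptors did not pass in any of 3 cases. GID1B (AT3G63010) had the highest level, with a median of 52.6 FPKM in EZ against 70.4 FPKM in MZ, and a difference of -0.27 ± 0.17 (adjusted p = 0.253). The F-box gene SLY1 (AT4G24210), whose protein recruits DELLA proteins for degradation, had a median of 16.6 FPKM in EZ and 13.9 FPKM in MZ, a difference of 0.40 ± 0.18 (adjusted p = 0.119). Of the 5 DELLA genes, 2 were higher in EZ. RGL1 (AT1G66350) had 2.09, 4.51 and 8.24 FPKM in EZ, against 0.212, 2.03 and 3.89 FPKM in MZ (1.04 ± 0.28, adjusted p = 0.0125). RGL2 (AT3G03450) had 0.429, 4.5 and 6.29 FPKM in EZ, against 0.195, 1.82 and 3.19 FPKM in MZ (0.79 ± 0.21, adjusted p = 0.0114). RGA (AT2G01570), the most abundant DELLA gene and a main repressor of root growth, had a median of 22.1 FPKM in EZ and 22.7 FPKM in MZ, with a difference of -0.02 ± 0.18 (adjusted p = 0.96). Both DELLA calls were lost with quantile normalisation (adjusted p = 0.0671 for RGL1 and 0.105 for RGL2).

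Of 4 signalling modifiers, 2 were higher and 1 lower in EZ. SEC (AT3G04240) and SPY (AT3G11540) encode related glycosyltransferases that modify DELLA proteins, and they lay on opposite sides. SEC had 30.9, 37.4 and 65.4 FPKM in EZ, against 47.2, 57.0 and 105 FPKM in MZ (-0.64 ± 0.12, adjusted p = 0.00116). SPY had 6.31, 11.3 and 18 FPKM in EZ, against 4.08, 6.37 and 10.5 FPKM in MZ (0.62 ± 0.18, adjusted p = 0.0171). GAF1 (AT3G50700), a zinc finger protein that partners with DELLA proteins, had medians of 2.68 FPKM in EZ and 0.877 FPKM in MZ (0.84 ± 0.26, adjusted p = 0.0292). The call of SEC held under every alternative run. The call of SPY was lost with quantile normalisation (adjusted p = 0.136), and that of GAF1 with 10 of 20 single libraries left out, with median-of-ratios scaling (adjusted p = 0.0501) and with quantile normalisation (adjusted p = 0.226). The transport genes had 0 of 2 called, the higher by the median over 20 libraries being NPF3 (AT1G68570), with a median of 0.501 FPKM in EZ and 0.131 FPKM in MZ.

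Among 14 other GASA peptide genes, 6 were tested and 1 passed. GASA1 (AT1G75750) was at a level like that of GASA4, with a median of 1175 FPKM in EZ and 1528 FPKM in MZ, but its difference was -0.06 ± 0.36 (adjusted p = 0.919). GASA5 (AT3G02885), which is known to delay flowering, had 0, 0.858 and 2.63 FPKM in EZ, against 0, 0.0932 and 1.09 FPKM in MZ. Its difference was 0.67 ± 0.19 (adjusted p = 0.0145). Since 5 EZ-labelled libraries and 1 MZ-labelled library reached 1 FPKM, it met the filter only through EZ. The call was lost with quantile normalisation (adjusted p = 0.117) and over days 3 to 5 alone (adjusted p = 0.0833).

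**Figure D4:**
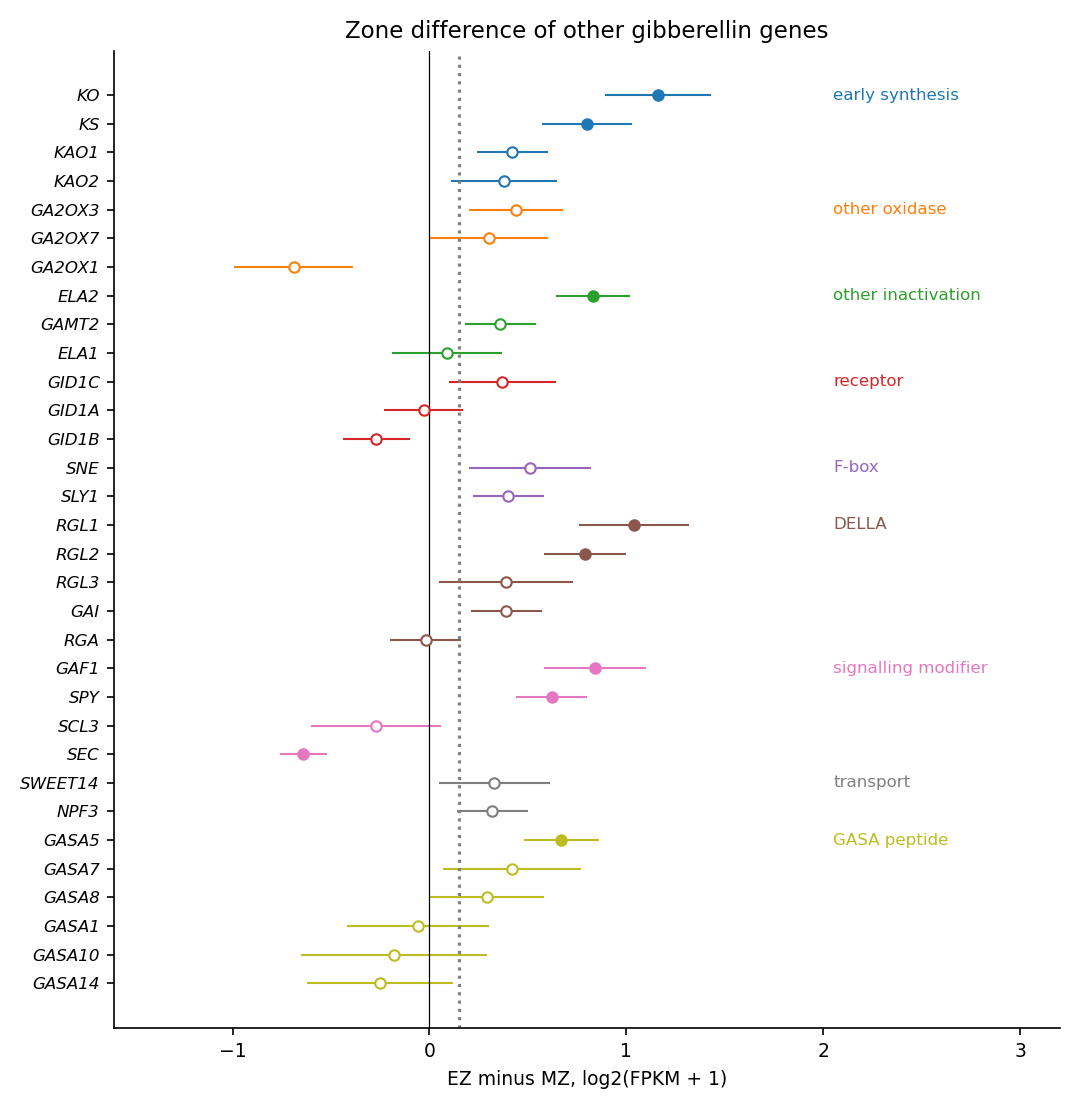
Zone difference (EZ minus MZ, log2(FPKM + 1), horizontal axis) of the 32 other pathway genes tested, grouped by role, with bars of 1 SE. Filled points passed an adjusted p of 0.05, and the dotted line is the median of all genes, 0.15. The filled points are 8 genes right of the line, from SPY at 0.62 to KO at 1.16, and SEC at -0.64.

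The genes whose pattern over the 20 libraries was most like each abundant gene were found by Pearson r of log2(FPKM + 1), among tested genes. Libraries share age, label and depth, and r is given as a description. For GA20OX5 they were AT2G38010, annotated as a neutral ceramidase (r = 0.811), AT4G29490, a metallopeptidase of the M24 family (r = 0.80), and AT3G30580, an uncharacterized protein (r = 0.796). For GA2OX6 they were AT1G63720, a hydroxyproline-rich glycoprotein (r = 0.905), AT1G24600, uncharacterized (r = 0.859), and the subtilase gene SBT3.5 (AT1G32940, r = 0.855). For GASA4 they were AT3G27770, annotated only as a plant protein (r = 0.895), the cytochrome b5 gene CB5-E (AT5G53560, r = 0.891) and TBL24 (AT4G23790, r = 0.879). Within EZ-labelled libraries alone, r with GASA4 was 0.641, 0.772 and 0.499 in the same order, and within MZ-labelled libraries 0.91, 0.92 and 0.929. None of these 9 is another gene of the pathway list. Among the 9 tested genes of the list themselves, the highest r was 0.67, for GA2OX2 and GA2OX6, both highest in the second replicates of day 4.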

How the data were processed

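FPKM per gene were made by the authors and deposited as 1 table. The submitters' processing notes list TopHat2 (2.0.13), the build TAIR10 and Cufflinks (2.1.1), and no role, setting, strand or scaling between libraries is given in the sources used here. Titles gave zone, age and replicate. The 22335 genes that reached 1 FPKM in 2 or more libraries were fitted as log2(FPKM + 1), which understates changes of weak genes, with a mean for each of 10 groups (limma 3.58.1 in R 4.3.3, variance trend on expression, 1 spread shared by 20 libraries). Contrasts were the zone difference averaged over 5 ages, linear slopes and any age difference within a label, and the change of the zone difference with age. Zone differences and slopes were tested two-sided, and any age difference and the change of the zone difference by moderated F tests with 4 degrees of freedom. All were adjusted by Benjamini-Hochberg over all genes, with a threshold of 0.05. The zone and slope fits were first run on simulated data. Replicates are called biological in the design text.

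Depth was estimated from the step between low FPKM values of transcripts of at least 2000 bp in the TAIR10.1 annotation. Per library, 73.5 to 89.9% of such values were whole multiples within 0.1, so no count test was run. Of each member's transcript, 0% of 32-base words occur in other genes' transcripts, and 0 overlap another gene.

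Members and lists were chosen with earlier results of these data known. Named were all members, other listed genes past the threshold or highest in their role, and the 3 most alike genes of each member with a mean of at least 10 FPKM. A few genes and libraries named beyond this (CPS, the day 4 replicates) were picked with their values in view. The settings varied were pseudocounts of 0.1 and 5 FPKM, no filter or 5 FPKM, quantile and median-of-ratios scaling, a replicate block, days 3 to 5 alone, each library left out, and, added after seeing the data, both second day 4 replicates left out.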

Additional observations from a re-analysis of the deposited data

How the results depend on the processing

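The members called for the zone difference (2) were 1 with a filter of 5 FPKM and with quantile normalisation, and 1 to 3 with a library left out. For the EZ slope (1) they were 0 with a pseudocount of 0.1 FPKM, a filter of 5 FPKM or both second day 4 replicates left out, and 0 to 1 with a library left out. For the MZ slope (0) they were 1 with a filter of 5 FPKM or the replicate block, and 0 to 1 with a library left out, the gene being GASA4. For any age difference in EZ (0) they were 1 with a pseudocount of 5 FPKM and 0 to 1 with a library left out, the gene being GA20OX5.

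The sign of weak, uncalled effects turned in a few settings. The zone difference of GA2OX8 was -0.14 with quantile normalisation and -0.04 to 0.37 with a library left out. EZ slopes were -0.06 (GA20OX2), 0.02 (GA2OX2) and -0.06 (GA2OX8) without both second day 4 replicates, and 0.05 (GA3OX2) and -0.03 (GA2OX8) with a pseudocount of 0.1 FPKM. With a library left out EZ slopes ran from -0.06 to 0.12 (GA20OX2), -0.06 to 0.26 (GA3OX1), -0.10 to 0.05 (GA3OX2), -0.34 to 0.02 (GA2OX2), -0.14 to 0.23 (GA2OX8) and -0.08 to 0.05 (GASA4). MZ slopes were -0.02 for GA2OX2 with a pseudocount of 5 FPKM and, with a library left out, -0.11 to 0.01 (GA20OX1) and -0.17 to 0.20 (GA2OX2). The cause was not tested.

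Without the second day 6 EZ library, 9 of 9 calls of other pathway genes in the zone difference held, with adjusted p from 0.00196 to 0.0267. The difference between replicates 1 and 2 correlated between the EZ and MZ libraries of an age at 0.01 to 0.35, and not over 0.1 at every age, so by the rule used the numbers were not taken to pair the libraries. As a hint from the data, 15 of 20 libraries were nearer to their own number in the other label. No fit paired the EZ and MZ libraries of an age. The replicate block is 1 term for replicate number over all ages, so it cannot show what such pairing would change. With this block the MZ slope of GASA4 passed (limma, adjusted p = 0.0457), and no other member's call changed. Over all genes, calls with a library left out ran from 5217 to 6589 (zone, 6334), 0 to 25 (EZ slope, 3), 4 to 194 (MZ slope, 205), 4 to 21 (any age difference in EZ, 12), 1 to 132 (in MZ, 92) and 4 to 21 (change of the zone difference, 10). The EZ slope called 49 genes with no filter, 1 with a filter of 5 FPKM and 6 with a pseudocount of 5 FPKM. The MZ slope called 382 with no filter, 48 with median-of-ratios scaling, 49 with quantile normalisation and 25 without both second day 4 replicates. Any age difference called 178, 1 and 25 genes in EZ (no filter, filter of 5 FPKM, pseudocount of 5 FPKM) and 241, 39, 41 and 38 in MZ (no filter, median-of-ratios, quantile, without both second day 4 replicates). The change of the zone difference called 117 with no filter, and 0 with a filter of 5 FPKM (669 at an unadjusted p under 0.05) or a pseudocount of 0.1 FPKM (994). Depth, 4.13 to 50.5 M fragments, limits what can be said of the weak oxidases.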
